A study of Mus musculus with 7 samples.

Results

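The fatty acid binding proteins described here are the genes Fabp3, Fabp4, Fabp5, Fabp7 and Fabp9. They were taken by symbol from a table of Affymetrix array values for mouse testis, and all 5 were measured, among 18194 genes in all. Each gene was followed through the probe set, a group of short probes against 1 transcript, that had the highest mean over all 7 arrays, out of 11 probe sets that carry a single one of these symbols. The RNA was total RNA of whole testis, the mice being 15 to 20 weeks old, and there were 3 knockout arrays, lacking Phf13, and 4 wild type arrays. Phf13 encodes a chromatin protein with a PHD finger. The labels give the genotype as Phf13 knockout or wild type and name no strain, allele design or treatment. Whether each array stands for its own animal is not stated, and the errors below rest on the spread between arrays, which may be partly technical. Each SD is of the arrays themselves. Each SE comes from the limma fit, which draws a gene's variance toward a value common to all genes. The RNA holds every cell type of the testis. A higher or lower share of cells of a type cannot be told apart from more or less RNA per cell.

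Fatty acid binding proteins are small cytosolic proteins that fold into a barrel and carry a long-chain fatty acid inside it. They ferry fatty acids from the plasma membrane to mitochondria, to lipid droplets and to nuclear receptors of the PPAR family. The members differ in where they are made: Fabp3 is the heart and muscle form, Fabp4 the fat cell and macrophage form, Fabp5 the epidermal form that many tissues make, Fabp7 the brain form of radial glia, and Fabp9 the testis form of spermatids and sperm heads. Fabp9 is therefore the germ cell member of the set, and the other 4 are somatic forms. In the testis, Sertoli cells burn fatty acids taken from engulfed germ cell remnants, and Leydig cells draw on stored lipid for steroid synthesis.

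The members were selected on the difference between knockout and wild type log2 signals in these same arrays, Fabp5 ranking 17 and Fabp3 ranking 64 by rise among all genes. Values of the 5 members in that contrast are therefore a description and carry no p-value. A gene is called here when its Benjamini-Hochberg adjusted p in limma, computed over all 18194 genes, was under 0.05, and rose and fell are used for called genes. All values are log2 signals, on which a difference of 1.00 is a doubling, and levels of different genes are not set against each other because each probe set has its own brightness.

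The targeted gene, Phf13, had log2 signals of 5.71 to 6.04 in knockout arrays and 8.54 to 8.73 in wild type arrays, so the groups did not overlap and each array matched its label. The sources used here do not give whether this probe set lies in the deleted part. Array medians lay between 5.01 and 5.08. Of 13 spermatid markers, all 13 had signals above the median gene (6.33), as did 8 of 12 Sertoli cell markers and 8 of 9 Leydig cell markers, so the labelled tissue showed its defining genes. Array titles open with a number that the labels do not explain, and its first 4 digits sort the arrays into 3 groups. These title-number groups each hold both genotypes. The first joins arrays 1 of both genotypes, the second has knockout 2 beside wild type 2 and 3, and the remaining one pairs knockout 3 to wild type 4.

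Promoter sequence was at hand in a RefSeq table (build GRCm38.p6) for 2 members, Fabp3 and Fabp7. They are shown because they represent a member that rose and a member whose signal was near the bottom of the range in every array. Each line gives the 250 bases before the annotated start, 5′ to 3′ on the plus strand. Fabp3 lies at chr4:130308488-130308737 and Fabp7 at chr10:57784673-57784922. Capitals mark TTTAAA, a run like the TATA box that was looked for after the sequences were seen.
Fabp3: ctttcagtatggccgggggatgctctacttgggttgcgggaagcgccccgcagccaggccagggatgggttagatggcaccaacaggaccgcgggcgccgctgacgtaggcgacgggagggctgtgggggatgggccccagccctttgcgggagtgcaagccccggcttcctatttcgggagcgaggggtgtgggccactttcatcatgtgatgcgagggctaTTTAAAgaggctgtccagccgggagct
Fabp7: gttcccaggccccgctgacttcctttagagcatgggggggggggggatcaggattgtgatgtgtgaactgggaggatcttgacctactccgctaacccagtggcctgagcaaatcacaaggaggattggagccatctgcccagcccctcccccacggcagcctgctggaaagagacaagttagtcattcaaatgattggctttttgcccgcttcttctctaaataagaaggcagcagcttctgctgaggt

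The Fabp3 window held TTTAAA once, starting 27 bases before the start site, and the Fabp7 window did not hold it. Of 32851 promoter windows of this length in the table, 12.1% held it on either strand. The direct repeat bound by PPAR with its partner RXR, which is AGGTCA 2 times with 1 free base between, was found in 0.0335% of all windows. The SF-1 site AAGGTCA, which can overlap that repeat, was found in 4.08%. The cAMP response element TGACGTCA was in 1.55%, the GC box GGGCGG in 32.7% and the TATA box TATAAA in 12.4%. On both strands these 5 occurred 0 times in the Fabp3 window and 0 times in the Fabp7 window. An absent match says only that these letters are not in this window.

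Fabp3 and Fabp5 were higher in every knockout array than in every wild type array, while the spermatid member Fabp9 and the brain form Fabp7 differed little. Fabp4 varied more between arrays of 1 genotype than between genotypes. Of the 5 members, 2 rose, 0 fell (0 also at an unadjusted p under 0.05 in limma) and 3 were not called, where 16.1% of all genes were called, 9.07% as rises and 7.05% as falls. The arrays of the 2 genotypes did not overlap for 2 members, as for 28.0% of all genes. Since the contrast was used to choose the family, nothing is read from that share.

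Fabp3, the heart-type carrier that is also abundant in steroid-producing cells, had log2 signals of 11.53, 11.17 and 11.46 in knockout arrays 1 to 3 and 10.19, 10.20, 10.54 and 10.59 in wild type arrays 1 to 4. The lowest knockout array lay above the highest wild type array, so the groups did not overlap. The means were 11.39 ± 0.19 (SD, n = 3) and 10.38 ± 0.21 (SD, n = 4), and the log2 difference was 1.01 (SE 0.13), a 2.01-fold higher signal. Within the title-number groups the difference was 1.34, 0.80 and 0.87. A second Fabp3 probe set, far dimmer, read 5.37, 5.46 and 5.29 in knockout and 5.34, 4.99, 5.25 and 5.17 in wild type arrays. Its groups overlapped and it differed by 0.19, so the mean of both probe sets gave a log2 difference of 0.60, which was still called. The RefSeq table also lists the pseudogenes Fabp3-ps1 and Fabp5l2, and whether the probes read RNA from such copies was not tested.

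Fabp5, the epidermal-type carrier known to take fatty acids to the nuclear receptor PPAR delta, had log2 signals of 9.34, 9.23 and 9.60 in knockout arrays and 7.97, 7.86, 8.38 and 8.54 in wild type arrays. All knockout arrays were again above all wild type arrays. The means were 9.39 ± 0.19 (SD, n = 3) and 8.19 ± 0.32 (SD, n = 4), a log2 difference of 1.20 (SE 0.17) or 2.30-fold, and 1.37, 1.11 and 1.06 within the title-number groups. The second Fabp5 probe set read 7.28, 7.30 and 7.57 in knockout and 6.16, 5.99, 6.69 and 6.64 in wild type arrays. Its log2 difference was 1.01, and its groups did not overlap either.

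Among wild type arrays, Fabp3 and Fabp5 were both lower in arrays 1 and 2 than in arrays 3 and 4. The mean of the Leydig cell markers showed the same split, at 8.68, 8.44, 8.90 and 8.83 in wild type arrays 1 to 4. So did the means of macrophage (6.64, 6.53, 6.78 and 6.76), endothelial (5.22, 5.16, 5.23 and 5.29) and fat cell markers (5.66, 5.63, 5.76 and 5.73). Spermatid markers had the reverse split, at 12.15, 12.16, 12.02 and 12.05. Schwann and glial markers had neither, at 5.95, 5.84, 5.89 and 5.67. The split was thus not particular to 1 cell type. The mean of the Sertoli cell markers was level in wild type 1 and 4, at 7.98, 7.81, 8.15 and 7.98, with wild type 2 lowest and wild type 3 highest. Fabp3 was called in all 7 fits that left out 1 array, and Fabp5 in 6 of 7. These fits reuse the arrays on which the family was chosen, so the calls are a description and no separate support. Without knockout 3 Fabp5 had a log2 difference of 1.10 and was no longer called, and without both knockout 3 and wild type 4 neither gene was.

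**Figure D1:**
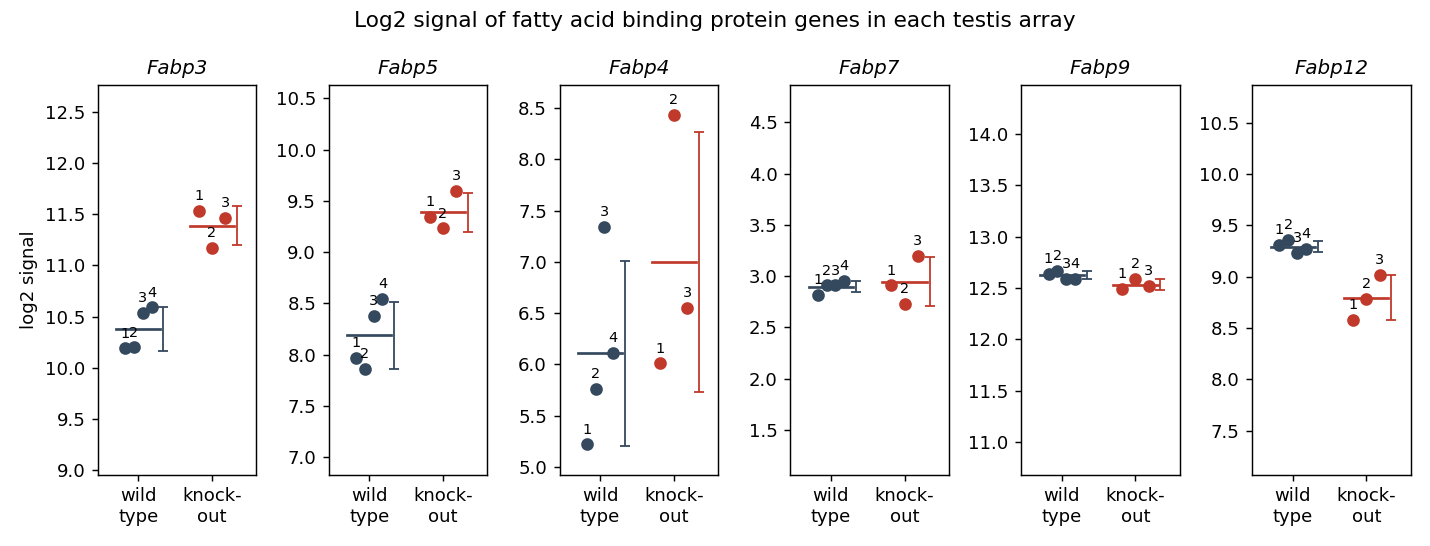
Log2 signal (vertical axis, each panel spanning the same number of log2 units) of 6 genes in wild type arrays (dark, n = 4) and knockout arrays (red, n = 3), with array numbers beside the points, the mean as a horizontal line and the SD as a bar. Fabp3 and Fabp5 separate upward in knockout, Fabp12 separates downward, Fabp4 is spread within both genotypes, and Fabp7 and Fabp9 overlap.

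Fabp4, the carrier of fat cells and macrophages, had log2 signals of 6.01, 8.43 and 6.55 in knockout arrays and 5.22, 5.76, 7.34 and 6.11 in wild type arrays. Knockout 2 was the highest of the 7 and wild type 3 the second highest, and the groups overlapped. The means were 7.0 ± 1.27 (SD, n = 3) and 6.11 ± 0.90 (SD, n = 4), and the log2 difference was 0.89 (SE 0.63), which was not called. It was 0.17 without knockout 2 and 1.30 without wild type 3, and 0.79, 1.88 and 0.44 within the title-number groups, of which the second holds both high arrays.

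Another Fabp4 probe set gave the same array order, from 4.47 in wild type 1 to 6.68 in wild type 3 and 7.83 in knockout 2. The remaining 2 Fabp4 probe sets were dim, at 3.07 to 3.28 and at 2.51 to 2.86 over all arrays, and did not show the 2 high arrays.

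The genes nearest to Fabp4 over the 7 arrays shared these peaks, which follows from how they were picked and is not read as a result. Nearness was the root mean square difference of log2 signals after each gene's own mean was subtracted. The nearest was Car3, a carbonic anhydrase abundant in fat and muscle, at a root mean square difference of 0.24. Car3 read 9.18 in knockout 2 and 8.27 in wild type 3, against 6.06 to 7.30 in the other arrays. Lpl, the lipoprotein lipase that frees fatty acids from circulating triglyceride, followed at 0.40, with 7.88 in knockout 2, 7.0 in wild type 3 and 5.83 to 6.29 elsewhere. The third was Tmem30b, a subunit of lipid flippases, at 0.44.

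Markers of fat cells were read beside Fabp4, with 9.07% of all genes called as rises and 7.05% as falls. The mean log2 signal of the 10 measured of 12 listed markers was 5.63 to 5.80 in knockout arrays and 5.63 to 5.76 in wild type arrays, the highest array of each genotype being knockout 2 and wild type 3. Of the 10, 0 rose by limma (2 were higher at an unadjusted p under 0.05) and 1 fell, the count of falls being 0 without any 1 array other than wild type 3 (1 to 2 were lower at an unadjusted p under 0.05). Retn, the fat cell hormone resistin, was 6.37 in knockout 2 and 6.19 in wild type 3 and 5.83 to 5.97 elsewhere. Cidec, a lipid droplet protein, was 3.24 and 3.19 in those arrays and 2.78 to 3.08 elsewhere, near the bottom of the range. Adipoq, the fat cell hormone adiponectin, was 7.58 in knockout 2 but 7.35 in wild type 3, within its range of 6.92 to 7.55 in the others. Lep, the leptin gene, stayed between 3.23 and 3.39 in all arrays. The other measured markers did not share both peaks. Thrsp was lowest of all arrays in knockout 2 (5.99), and Cidea was lowest of the knockout arrays there (7.35). Lipe, the marker that fell, was lowest of the wild type arrays in wild type 3 (9.35). Slc2a4 was highest in wild type 3 (5.61) but 5.33 in knockout 2. Aoc3 and Acvr1c peaked in neither array. The part of fat cells in the Fabp4 signal was not tested.

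**Figure D2:**
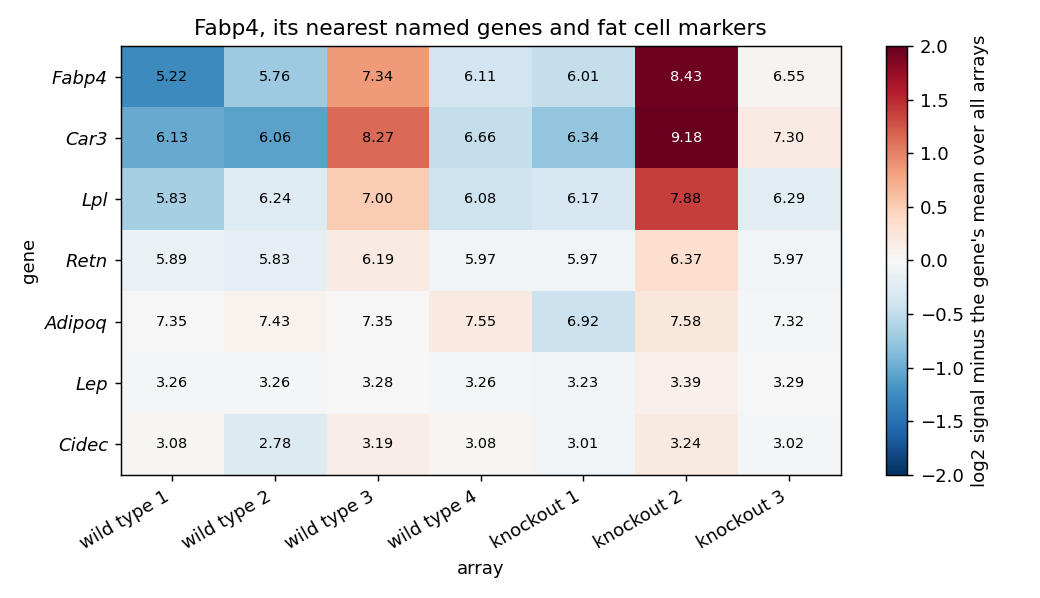
Rows are genes and columns are arrays; the number in each cell is the log2 signal, and the colour is its distance from the gene's mean over 7 arrays, with Car3 in knockout 2 just past the end of the colour scale. Fabp4, Car3 and Lpl are highest in knockout 2 and wild type 3, and Retn shows the same 2 arrays less strongly. Adipoq and Lep do not peak in wild type 3. Car3 and Lpl were picked for their likeness to Fabp4, so their peaks follow from that choice. The fat cell markers drawn are a part of those measured, and the others did not share both peaks.

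Fabp7, the brain-type carrier, had log2 signals of 2.91, 2.73 and 3.20 in knockout arrays and 2.82, 2.91, 2.91 and 2.95 in wild type arrays. Its groups overlapped, and the log2 difference was 0.05 (SE 0.11), not called. With a lowest value of 1.59 in the whole table, these signals lie near the bottom of the range and were not shown to be above background. Markers of Schwann and glial cells were mostly dim too, with 1 of 5 measured above the median gene, and 0 rose and 0 fell by limma, while 2 were lower at an unadjusted p under 0.05.

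Fabp9, the spermatid member, had log2 signals of 12.49, 12.59 and 12.52 in knockout arrays and 12.64, 12.67, 12.59 and 12.59 in wild type arrays. Knockout 2 equalled the lower wild type arrays, so the groups met. The means were 12.53 ± 0.05 (SD, n = 3) and 12.62 ± 0.04 (SD, n = 4), and the log2 difference was −0.09 (SE 0.06), not called. A second probe set read 8.96 to 9.07 in knockout and 9.01 to 9.21 in wild type arrays, a difference of −0.06. The highest value in the table was 13.92, and compression of bright signals was not tested.

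Among the genes nearest to Fabp9 over the 7 arrays was Prm2, which encodes a protamine of condensed sperm chromatin, at a root mean square difference of 0.0159. The others were the proteasome gene Psmd8 (0.0155) and the phosphatase gene Ppp4c (0.0183). They were picked for their likeness to Fabp9, so their own genotype differences are not read as a result. Of 13 spermatid markers, 0 rose, 3 fell and 10 were not called, where 9.07% of all genes rose and 7.05% fell. All 13 had a negative difference, as did 10896 of all 18194 genes. Their median was −0.08, where the median over all genes was −0.05. The 3 falls became 0 by limma without any 1 of the knockout arrays, wild type 1 or wild type 2, where 3 to 4 were lower at an unadjusted p under 0.05, and 1 without wild type 3 or 4.

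Each somatic member was set against Fabp9 within the same array, which takes out only a shift that both genes share. After each gene's wild type mean was subtracted, Fabp5 minus Fabp9 was 1.08 to 1.52 in knockout arrays and −0.38 to 0.39 in wild type arrays. Fabp3 minus Fabp9 was 0.82 to 1.28 in knockout and −0.23 to 0.24 in wild type arrays. Neither pair of ranges overlapped. The subtraction did not narrow the spread of Fabp3 or Fabp5 within a genotype. In wild type arrays the SD was 0.25 for Fabp3 minus Fabp9 against 0.21 for Fabp3 alone, and 0.36 against 0.32 for Fabp5. In knockout arrays it was 0.24 against 0.19 for Fabp3 and 0.22 against 0.19 for Fabp5. Fabp4 minus Fabp9 ran from 0.04 to 2.36 in knockout and from −0.91 to 1.27 in wild type arrays, and Fabp7 minus Fabp9 from −0.14 to 0.41 and from −0.10 to 0.09, so both of these overlapped. The contrast of somatic members with Fabp9 was part of how the family was chosen, and no test was made of it.

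**Figure D3:**
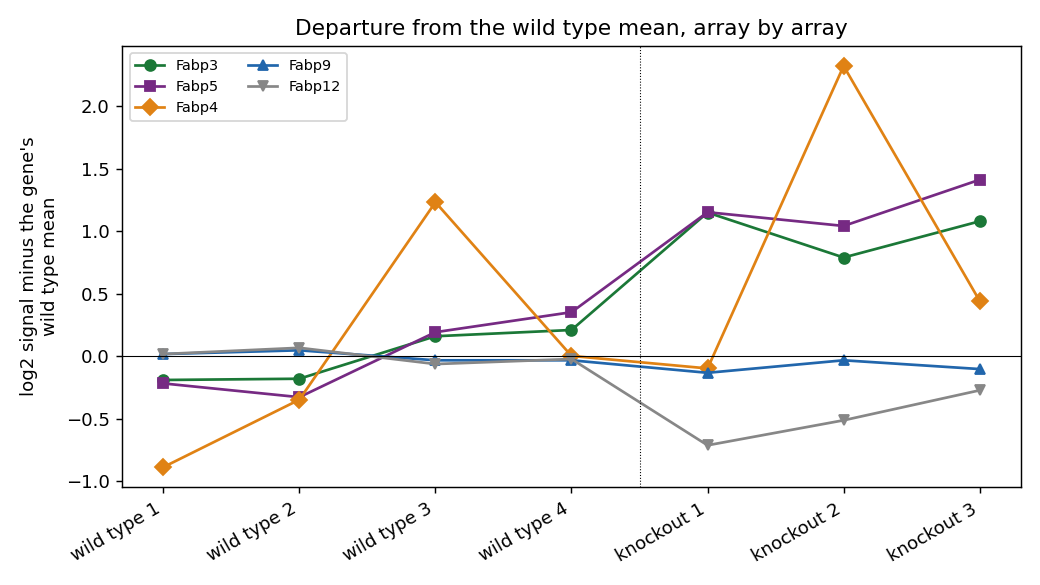
Log2 signal minus the gene's wild type mean (vertical axis) for 5 family genes in the 4 wild type and 3 knockout arrays (horizontal axis); lines join the points of 1 gene and imply no order of arrays. Fabp3 and Fabp5 lie at 0.79 or above in knockout, Fabp9 stays between −0.13 and 0.05, and Fabp4 peaks in wild type 3 and knockout 2.

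The root mean square difference between Fabp3 and Fabp5 over the 7 arrays was 0.16, which made Fabp5 number 73 in nearness to Fabp3 and Fabp3 number 19 in nearness to Fabp5. The 3 named genes nearest to Fabp5 were Dpyd, which breaks down pyrimidines (0.0826), the matrix proteoglycan gene Ogn (0.0876) and the matricellular gene Sparcl1 (0.0896). Those nearest to Fabp3 were the corepressor gene Nab1 (0.0760), Hsd17b11, a dehydrogenase of lipid droplets (0.0807), and the lysozyme gene Lyz2 (0.0932). Nearness over all 7 arrays takes in the genotype difference that chose Fabp3 and Fabp5, so the rises of these 6 genes (0.87 to 1.20) follow from how they were picked. With all probe sets averaged, Nab1 was at 0.44, Hsd17b11 at 0.42 and Dpyd at 0.59, all still called. The 3 nearest to Fabp7 were Col4a6, Klhl6 and Rassf4, none of them called.

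Markers of 3 somatic cell types of the testis moved with Fabp3 and Fabp5. Over all genes, 9.07% rose and 7.05% fell. Of 12 measured Sertoli cell markers, 10 rose and 0 fell, and their mean log2 signal was 8.43 to 8.59 in knockout and 7.81 to 8.15 in wild type arrays. Of 9 measured Leydig cell markers (12 listed), 4 rose and 0 fell, with means of 9.15 to 9.47 and 8.44 to 8.90. Of 13 macrophage markers, 6 rose and 0 fell, with means of 6.90 to 7.52 and 6.53 to 6.78. For each of the 3 lists the means of the 2 genotypes did not overlap. Taken singly, 10 Sertoli cell, 5 Leydig cell and 7 macrophage markers separated upward in knockout, where 12.8% of all genes did. Of 12 endothelial markers, 0 rose and 0 fell by limma, and 1 was lower at an unadjusted p under 0.05, with means of 5.18 to 5.29 and 5.16 to 5.29. Without knockout 3, 3 Sertoli cell, 1 Leydig cell and 0 macrophage markers rose by limma, and 10, 6 and 7 were higher at an unadjusted p under 0.05. Leydig cell markers also went to 1 rise without knockout 1 or wild type 1 and to 2 without wild type 2. Macrophage markers went to 1 without knockout 1, wild type 1 or wild type 2 and to 2 without wild type 4. The part of these cells in the Fabp3 and Fabp5 values was not tested.

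The wider family of lipid-carrying barrel proteins was measured through 9 further genes: Fabp1, Fabp2, Fabp6, Fabp12, Pmp2, Crabp1, Crabp2, Rbp2 and Rbp7. In knockout testis 0 of 9 rose, 1 fell and 8 were not called, where 9.07% of all genes rose and 7.05% fell. All 9 had a negative log2 difference (median −0.13), as did 10896 of all 18194 genes (median over all genes −0.05). The signals of all but Fabp12 were below the median gene, so little can be seen of the liver form Fabp1, the intestinal forms Fabp2 and Fabp6, the myelin form Pmp2 or the retinoid carriers.

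Fabp12, a family gene expressed in testis and eye, had log2 signals of 8.58, 8.78 and 9.02 in knockout arrays and 9.31, 9.36, 9.23 and 9.27 in wild type arrays. Every knockout array was below every wild type array, and 15.2% of all genes showed that separation. The means were 8.79 ± 0.22 (SD, n = 3) and 9.29 ± 0.06 (SD, n = 4), and Fabp12 fell by 0.50 on the log2 scale (SE 0.10, limma adjusted p = 0.0182), a 1.41-fold lower signal. Within the title-number groups the difference was −0.73, −0.52 and −0.25. Leaving out 1 array kept the call in 6 of 7 fits, and without wild type 1 the adjusted p was 0.0564.

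Pmp2 read 5.26 to 5.39 in knockout and 5.43 to 5.58 in wild type arrays, a log2 difference of −0.19 (SE 0.06, limma adjusted p = 0.0787), and was not called. It passed in 2 of 9 alternative settings, which were the quantile normalization and median centring of the arrays.

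In the RefSeq order of mouse chromosome 3, Fabp5, Pmp2, Fabp9, Fabp4 and Fabp12 follow each other with no other protein-coding gene between them. Their log2 differences in that order were 1.20, −0.19, −0.09, 0.89 and −0.50, so the 2 called family genes of the run moved in opposite directions. The flanking genes, chosen after their values were seen, were Pag1 on the side of Fabp5, which rose by 0.47 (SE 0.11), and Impa1 on the side of Fabp12, at 0.25 (SE 0.09), not called. Fabp3 lies on chromosome 4, as Phf13 does, and the effect of that shared chromosome was not tested. The nearest measured genes on either side of it, Serinc2 (−0.04, SE 0.09) and Zcchc17 (0.06, SE 0.06), were not called.

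**Figure D4:**
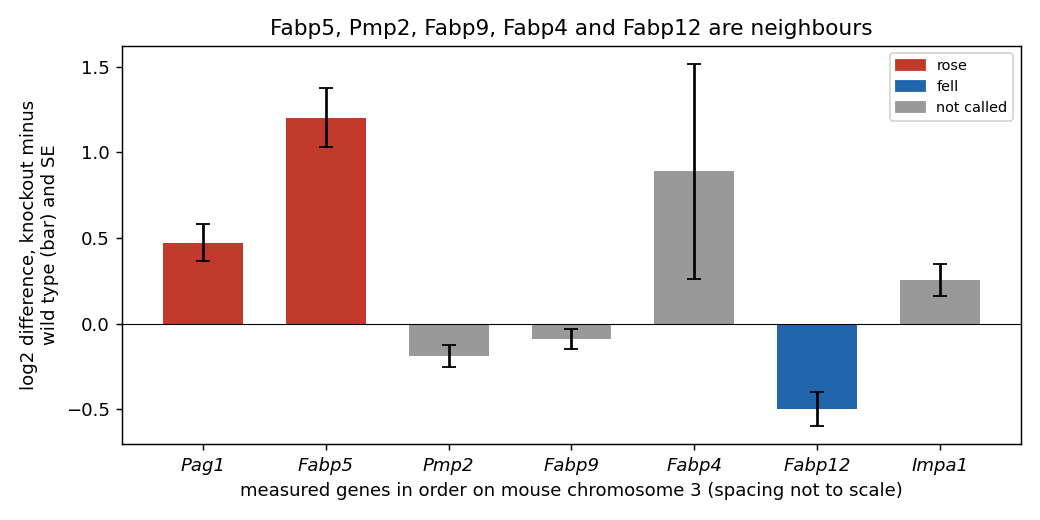
Log2 difference, knockout minus wild type (bars, from 0) with its SE for the 5 family genes of chromosome 3 and the gene on either side, in chromosomal order. Fabp5 (1.20) and Fabp12 (−0.50) stand at opposite ends of the run and on opposite sides of 0.

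Genes that act before and after the fatty acid carriers were read from 7 lists, beside a median log2 difference of −0.05 and the shares of 9.07% rises and 7.05% falls over all genes. At the cell surface, 3 of 12 measured genes of fatty acid release and uptake rose, 0 fell and 9 were not called, with a median log2 difference of 0.21. Cd36, the fatty acid translocase, had log2 signals of 7.99, 8.27 and 8.53 in knockout and 6.88, 7.17, 7.19 and 7.80 in wild type arrays and rose by 1.00 (SE 0.21, limma adjusted p = 0.0199). Lipg, endothelial lipase, rose by 0.96 (SE 0.21). Got2, a mitochondrial aminotransferase also described as a fatty acid binding protein of the plasma membrane, rose by 0.51 (SE 0.14), but the mean of its 4 probe sets was at 0.17 and not called (limma adjusted p = 0.117). Mfsd2a, a carrier of lysolipids, was at 0.37 (SE 0.13) and not called. By limma 0 genes of this list rose without knockout 3 (3 were higher at an unadjusted p under 0.05) and 0 without wild type 1 (5 were), and 1 rose without knockout 1 or wild type 2.

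Of 19 genes of acyl-CoA metabolism, 5 rose, 4 fell and 10 were not called (median 0.04). Acsl4, which activates arachidonic acid, read 8.02, 8.06 and 8.03 in knockout and 7.12, 6.86, 7.26 and 7.44 in wild type arrays and rose by 0.87 (SE 0.12), or by 0.57 with its 3 probe sets averaged. Acsbg1, another acyl-CoA synthetase, rose by 0.84 (SE 0.15). The acyl-CoA binding protein gene Acbd6 fell by 0.33 (SE 0.06) and Acss2, which activates acetate, by 0.34 (SE 0.07). With its 3 probe sets averaged Acss2 was at −0.23 and not called (limma adjusted p = 0.115), and the list then had 4 rises and 2 falls. In this list rises and falls thus stood side by side. Without knockout 3, 0 rose and 0 fell in limma, though 5 were higher and 5 lower at an unadjusted p under 0.05. Without knockout 1, 3 rose and 1 fell, without wild type 1, 2 rose and 1 fell, and without wild type 2, 4 rose and 2 fell.

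The carnitine shuttle and beta-oxidation, mostly mitochondrial but with the peroxisomal enzymes Ehhadh and Hsd17b4 on the list, were represented by 21 measured genes, of which 10 rose, 0 fell and 11 were not called. Their median log2 difference was 0.28. Hadh, a dehydrogenase of the beta-oxidation spiral, read 10.72, 10.78 and 10.84 in knockout and 9.93, 9.72, 10.28 and 10.17 in wild type arrays and rose by 0.76 (SE 0.13, limma adjusted p = 0.0132). The thiolase gene Acaa2 rose by 0.69 (SE 0.12), the medium-chain dehydrogenase gene Acadm by 0.63 (SE 0.11) and the hydratase gene Echs1 by 0.61 (SE 0.12). In 11 of the 21 the knockout arrays were all above the wild type arrays, against 12.8% of all genes. The limma count of rises was 0 without knockout 3 (11 were higher at an unadjusted p under 0.05), 2 if knockout 1 or wild type 1 was left out and 4 if wild type 2 was.

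Of 21 genes that build, desaturate or elongate fatty acids, 8 rose, 0 fell and 13 were not called (median 0.27). Fads2 and Fads1, the desaturases that make polyunsaturated fatty acids, rose by 0.66 (SE 0.09) and 0.74 (SE 0.11). With its probe sets averaged Fads1 was at 0.43, still called. Fads2 read 9.12, 9.23 and 9.38 in knockout and 8.58, 8.45, 8.72 and 8.57 in wild type arrays. The stearoyl-CoA desaturase gene Scd2 rose by 0.75 (SE 0.12), as did Hsd17b12, a reductase of the elongation cycle (SE 0.13). Fads1 and Fads2 were called in all 7 fits that left out 1 array, while the count of the list was 2 if knockout 3 was left out, 4 for wild type 1 and 5 for knockout 1.

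Of 21 genes of triglyceride synthesis, lipid droplets and lipolysis, 2 rose, 3 fell and 16 were not called (median −0.11). The acyltransferase gene Gpam, which starts glycerolipid synthesis, rose by 0.67 (SE 0.14), and G0s2, an inhibitor of lipolysis, rose by 0.76 (SE 0.16). Pnpla2, the triglyceride lipase that G0s2 inhibits, fell by 0.36 (SE 0.08), or by 0.22 with its 2 probe sets averaged, and the acyltransferase gene Agpat2 fell by 0.33 (SE 0.07). With knockout 1, knockout 3 or wild type 1 left out, 0 rose and 0 fell in limma, though 4 to 5 were higher and 5 to 6 lower at an unadjusted p under 0.05. Without wild type 2, 1 rose and 0 fell.

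Of 14 nuclear receptors and lipid-sensing factors, 2 rose, 0 fell and 12 were not called (median −0.0004). Nr5a1, which encodes SF-1, read 7.44, 7.19 and 7.47 in knockout and 7.0, 6.58, 7.08 and 6.71 in wild type arrays and rose by 0.52 (SE 0.13). The mean of its 2 probe sets was at 0.29 and not called (limma adjusted p = 0.0820). Mlxipl, the carbohydrate-responsive factor ChREBP, rose by 0.52 (SE 0.14). Its signal was below the median gene, and its groups met at 5.26 in knockout 2 and wild type 3. In a fit that takes out the title-number groups neither Nr5a1 nor Mlxipl was called (limma adjusted p = 0.0610 and 0.0697). In that fit 2 other genes of the list fell, among them the coactivator gene Ppargc1a (−0.49, limma adjusted p = 0.0249). Without the block Ppargc1a was at −0.49 (SE 0.15, adjusted p = 0.0537), and Rxrg, a PPAR partner, at −0.23 (SE 0.07, adjusted p = 0.0605). Quantile normalization gave 2 rises and 2 falls in this list, and median centring 2 rises and 3 falls. Ppargc1a was called in 5 of 8 other settings and Rxrg in 2 of 8, but each in 0 of 7 fits that left out 1 array. With its 5 probe sets averaged Ppargc1a was at −0.22 and not called (limma adjusted p = 0.0730). The PPAR genes themselves, named after their values were seen, were at 0.03 for Ppara, −0.08 for Ppard and −0.01 for Pparg, all below the median gene in signal and none called. With knockout 1, knockout 3, wild type 1, wild type 2 or wild type 4 left out, 0 genes of this list rose by limma, though 2 were higher at an unadjusted p under 0.05 each time.

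Of 11 measured textbook PPAR target genes outside the family (15 listed), 1 rose, 0 fell and 10 were not called (median 0.15). That gene was Cpt1a, the carnitine transferase that admits fatty acids to mitochondria, which rose by 0.45 (SE 0.11, limma adjusted p = 0.0260) and is also on the beta-oxidation list. Pdk4 was at 0.48 (SE 0.16), Angptl4 at 0.34 (SE 0.13) and Ehhadh at 0.28 (SE 0.11), none of them called and all below the median gene in signal. The lipid droplet coat gene Plin2, named after its value was seen, was at 0.01 (SE 0.09). Cpt1a was called in 2 of 7 fits that left out 1 array. Without knockout 2 the list had 3 rises, Pdk4 (0.70) and Angptl4 (0.46) being called as well, and without any other single array but wild type 3 it had 0 by limma, with 2 to 4 genes higher at an unadjusted p under 0.05.

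**Figure D5:**
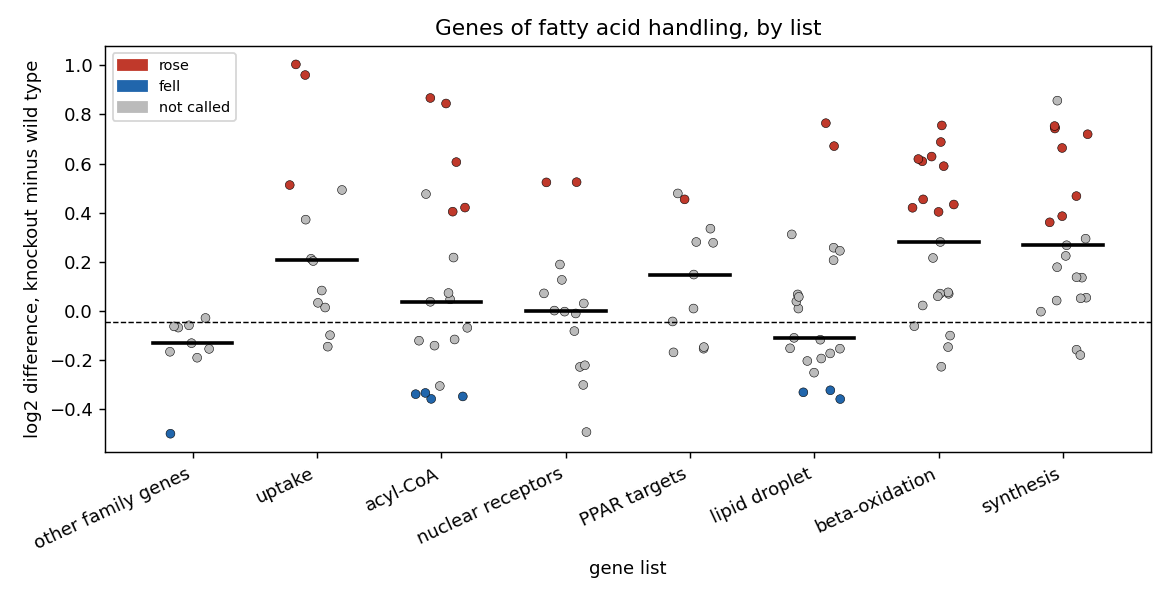
Each point is a gene, its height the log2 difference (knockout minus wild type), coloured by whether it rose, fell or was not called; thick bars are list medians and the dashed line is the median of all genes (−0.05). The beta-oxidation and synthesis lists hold 10 and 8 rises and no fall, and the acyl-CoA and lipid droplet lists hold both.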

How the data were processed

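Total RNA of whole testis (2 ug per array) was hybridised to Affymetrix arrays, 3 from Phf13 knockout and 4 from wild type mice. The deposited log2 signals of 45101 probe sets were made by the authors with Affymetrix Expression Console 1.4.1, per the submitters' processing notes. The log scale was read from the values (1.59 to 13.92). Summarisation and normalization are not given in the sources used here. Affymetrix signals carry no counts, so precision is limited by the number of arrays.

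Probe sets with 1 gene symbol in the platform annotation were kept (34958, against 932 with several and 9211 with none), and each of 18194 genes was represented by its probe set with the highest mean over 7 arrays. Knockout minus wild type was fitted over all genes with limma 3.58.1 (lmFit and eBayes, two-sided) in R 4.3.3, with Benjamini-Hochberg adjustment and a threshold of 0.05, and the code was tested on simulated data. No 2 arrays shared more than 9.82% of their values. Alternatives covered normalization, dim genes, the probe set rule, the variance model, blocks and left-out arrays.

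The members, lists and tests were chosen with earlier results of these data known. Named by rule were Phf13, the members with all their probe sets, the other family genes, up to 4 genes of each pathway list with the smallest p, and the 3 genes nearest to each member, leaving out predicted and clone names. Marker genes were named where they bear on a member. Gene symbols are those of the platform annotation, which can be old, and sequences and gene order come from RefSeq tables of GRCm38.p6.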

Additional observations from a re-analysis of the deposited data

Results flagged for a closer look

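In 4 of 58 named genes the gap between 1 wild type array and the other 3 took up most of the range of the group, where chance gives about 1 in 20. The gap to the nearest array, as a share of the range of the 4, was 0.931 for Rbp2, whose log2 signals were 4.17, 4.46, 4.19 and 4.19. It was 1.00 for Rbp7, at 3.36, 3.38, 3.36 and 3.36, a very small gap in itself, and 0.882 for Ehhadh, at 3.11, 2.81, 3.14 and 3.15. It was 0.950 for Klhl6, at 4.21, 4.40, 4.41 and 4.40. All 4 genes have signals below the median gene, and none of the fatty acid binding protein members was among them.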

How the results depend on the processing

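The number of genes called (2934, 1651 up and 1283 down) was 175 to 2574 with 1 array left out, lowest without knockout 3, and was 741 without wild type 1, 996 without knockout 1 and 1364 without wild type 2. It was 4 without both knockout 3 and wild type 4, where Fabp3 (1.04) and Fabp5 (1.22) were no longer past the threshold and the beta-oxidation median was 0.40. With 1 array left out Fabp5 ranged from 1.09 to 1.32, Fabp3 from 0.94 to 1.12 and the beta-oxidation median from 0.20 to 0.365. Centring each array on its median called 3799 genes, 1572 up and 2227 down. Fabp9 moved to −0.044 under quantile normalization and −0.14 under centring. With genes in the lowest 33.3% of signal left out the medians were 0.37 for uptake and 0.10 for nuclear receptors, and without the lowest 50% (fewer genes tested) they were 0.51 for uptake, 0.13 for nuclear receptors, −0.50 for the other family genes and −0.092 for acyl-CoA genes. Within title-number groups Fabp3 was at 1.34 and 0.80, Fabp7 at −0.18 and 0.25, and Fabp9 at −0.15 and −0.04. Where no construction is named, the cause was not tested. With the replicate number as a block, Fabp3 was at 1.08 and Fabp5 at 1.32, and Got2 (limma adjusted p = 0.108) and Agpat2 (0.0757) were not called. Deviations of same-numbered arrays correlated at 0.18, 0.10 and −0.14, so the numbers were not taken to pair the arrays. Within title-number groups the deviations correlated at 0.10 to 0.32, and between these groups at −0.17 to 0.02. The main fit had no block for the title-number groups, and what their arrays share was not tested. With that block, Fabp3 was at 0.98 and Fabp5 at 1.17. No member changed direction among called results. Dim genes such as Fabp7 have no shown signal over background.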
